A study of Homo sapiens with 45 samples.

Results

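The comparison described here set T47D cells that carried a hairpin against ZHX2 and a ZHX2 form labelled PA against T47D cells that carried the same hairpin and the empty vector. T47D is a human line from a breast carcinoma of the luminal kind, which carries the oestrogen receptor. Each group had 3 libraries, so the comparison used 6 of the 45 libraries in the series, and all genes of the table were examined. The labels place both groups in hypoxia, and neither the oxygen level nor its duration is given in the sources used here. The same table also held shZHX2 cells with a WT form or an SA form of ZHX2, and cells with a control hairpin (shCtrl) and vector, with 3 hypoxic libraries each. A separate table of T47D cells, used further below, held hypoxic shZHX2, hypoxic shCtrl and normoxic shCtrl cells, also with 3 libraries each. The labels do not spell out PA or SA, and they do not say whether any line was a single clone. The constructs came in lentivirus with hygromycin or puromycin as the selecting drug, and the libraries were made from polyA RNA and read as pairs of 150 bp. The series states as its question which genes are induced by hypoxia and depend on ZHX2 and on its phase separation.

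ZHX2 is a nuclear protein with zinc fingers and homeodomains that acts as a transcription factor. Under normal oxygen it is marked by prolyl hydroxylation and destroyed through the VHL ubiquitin ligase, the enzyme complex that also removes the HIF alpha subunits, so low oxygen stabilises both. In such an experiment the hairpin lowers the endogenous transcript, and a re-expressed form is read out by the genes it moves away from the vector level.

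Total counts were 22044832, 22033393 and 19045652 in the PA libraries and 19929402, 22356373 and 24760885 in the vector libraries. Of 60624 genes listed, 14302 passed the filter on low counts and were tested, with a common biological coefficient of variation of 3.16%. No label tells whether a replicate was its own culture, and a p-value therefore covers library-to-library spread that could be technical. Levels are CPM, read counts divided by the library total and scaled with TMM factors, which correct for libraries in which a few abundant genes take a large share. Levels of different genes are not compared, since CPM does not correct for length. The luminal markers ESR1, GATA3, FOXA1, KRT8, KRT18, KRT19, EPCAM, CDH1, ELF3 and SPDEF summed to 29400 to 29700 CPM in PA libraries and 31200 to 32500 CPM in vector libraries. KRT8, KRT18 and KRT19 made up nearly all of that sum. At an adjusted p under 0.05, ESR1, GATA3, FOXA1, EPCAM and CDH1 were higher with PA and KRT18, KRT19 and SPDEF lower. KRT8 and ELF3 did not reach that threshold. Markers of leukocytes summed to at most 0.151 CPM and those of endothelium to at most 0.289 CPM in any of these 6 libraries. In the basal list the sum was 1840 to 1920 CPM with PA and 1990 to 2040 CPM with vector, nearly all of it KRT17, and TP63 was at 0. The fibroblast list summed to 18.2 to 20.2 CPM with PA and 27.9 to 30.6 CPM with vector, nearly all of it COL1A1, which fell by 0.57 on the log2 scale, and THY1 was at 0. In bulk RNA fewer cells of a type and less RNA per cell cannot be told apart, and the part of these marker differences in the results was not tested.

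ZHX2 (ENSG00000178764, chromosome 8, 122781394 to 122974512 on GRCh38) stood at 54.5, 53.6 and 53.8 CPM in the PA libraries, against 7.07, 6.24 and 7.27 CPM in the vector libraries. The groups were far apart, with every PA library above every vector library. The log2 fold change was 2.97 (SE 0.0609), with an adjusted p of 4.73e-54 in edgeR's quasi-likelihood test with Benjamini-Hochberg adjustment over all genes, which is the test behind every adjusted p given here. The shCtrl libraries held 31.2, 34.2 and 30.5 CPM, so the PA level lay above that of cells without the knockdown. The WT libraries held 74.0, 71.8 and 71.3 CPM, and PA was lower than WT by a log2 difference of -0.42 (SE 0.0422, adjusted p = 9.66e-15). Whether reads from the introduced construct are counted under the gene in full is not known.

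**Figure D1:**
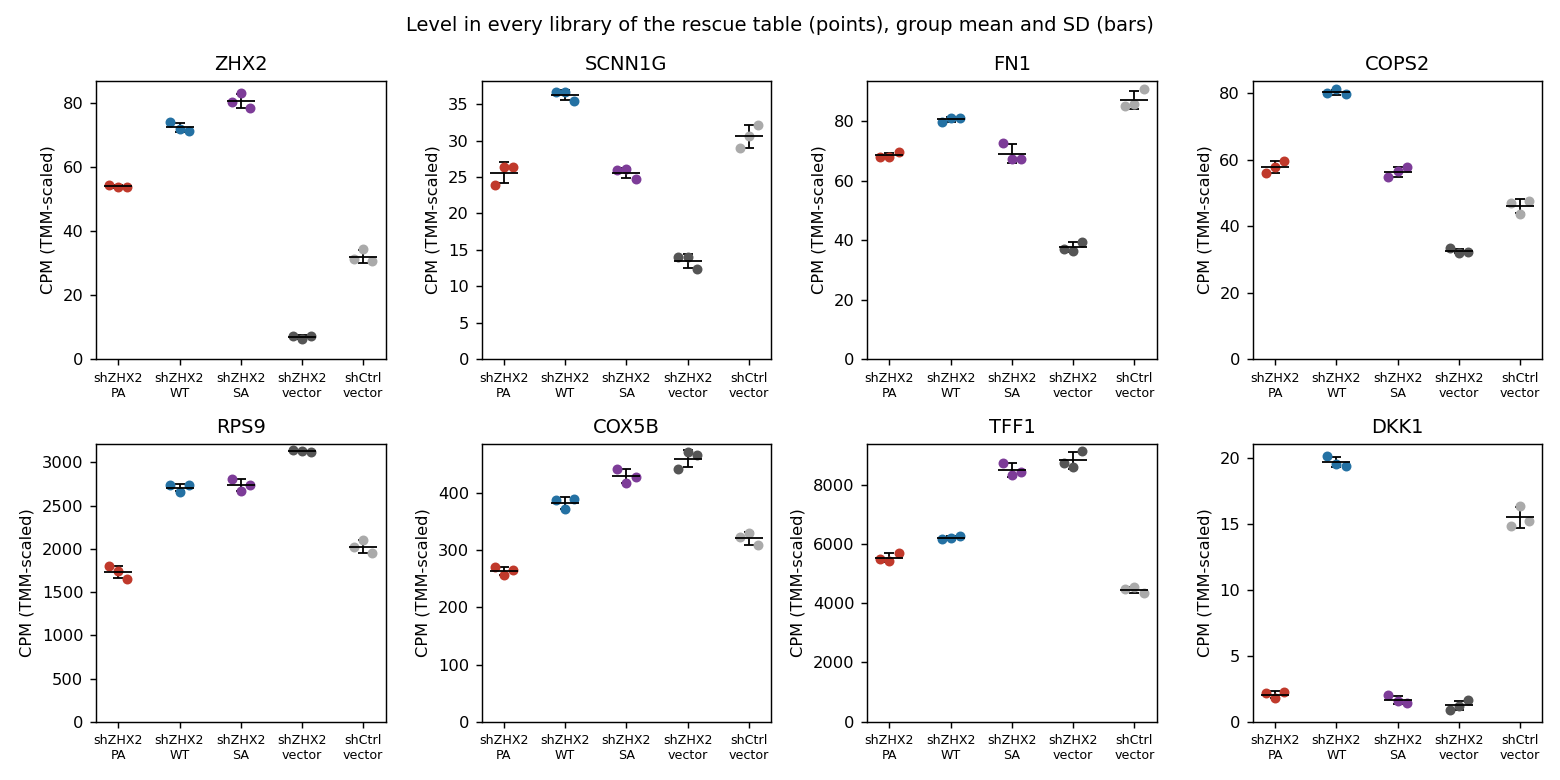
Levels in CPM (TMM-scaled, vertical axes from 0) of 8 genes in every library of the table, with the mean and SD of each group of 3. ZHX2, SCNN1G, FN1 and COPS2 stood higher with PA than with vector and RPS9, COX5B and TFF1 lower, while DKK1 stood at 1.77 to 2.25 CPM with PA and 19.4 to 20.1 CPM with WT.

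Many genes differed between the PA and vector libraries, most of them by small amounts. At an adjusted p under 0.05, 3536 genes were higher and 3270 lower with PA than with vector, together 47.6% of all genes tested. By direction these were 24.7% higher and 22.9% lower. These are the shares to set beside the counts of list members given below for PA against vector with TMM factors and no offset. Differences of at least 2-fold were found in 65 higher and 71 lower genes, which is 0.951% of genes tested (0.454% and 0.496%), and 87.5% of the called genes differed by less than 1.5-fold. The median absolute log2 fold change over all genes was 0.239. The WT form, set against the same vector libraries, called 69.7% of genes tested, 35.1% higher and 34.6% lower. It gave 1018 higher and 1129 lower genes at 2-fold or more (15% of genes tested, 7.12% and 7.89%) and a median absolute log2 fold change of 0.449. The SA form was close to PA in this respect, with 41.7% of genes called against vector and a median absolute log2 fold change of 0.203. The first principal component of the table, with 53.9% of the variance, placed the PA libraries at 26.8 to 27.1. The vector libraries lay at 33.8 to 34.7 and the SA libraries at 23.8 to 24.6. WT lay at -42.9 to -42.1 and shCtrl at -43.4 to -42.4. On the third component, with 7.19%, PA lay at -22.2 to -18.1, vector at 18 to 20.3 and SA at -2.53 to 0.909.

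The split of calls depended on scaling. With TMM factors 52.0% of the calls were higher with PA. With scaling to the library total alone, which moved the log2 fold change of all genes up by 0.149 in the median, 5804 genes were higher and 1794 lower, and 76.4% of the calls were higher. The TMM factors were 1.098 to 1.10 in PA libraries and 0.9894 to 0.9948 in vector libraries. Ribosomal protein genes took 10.9, 10.7 and 11.0% of all counts in the PA libraries, against 14.6, 14.6 and 14.5% in the vector libraries.

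**Figure D2:**
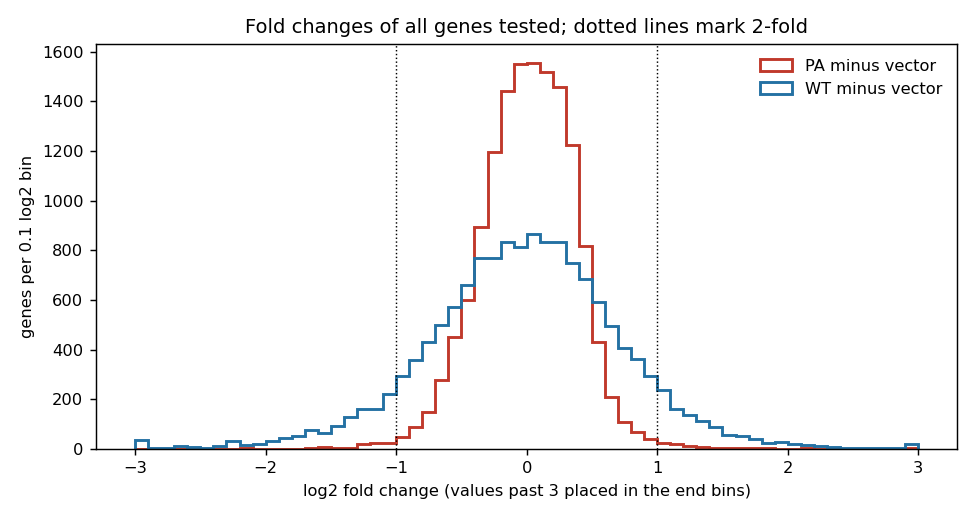
Number of genes (vertical axis, per 0.1 log2 bin) by log2 fold change (horizontal axis) for PA minus vector and WT minus vector over 14302 genes each, with dotted lines at 2-fold. The PA distribution is the narrower one, with 136 called genes outside the dotted lines, and both use the same 3 vector libraries.

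The fold changes ran along the GC content and length of the genes. Over 14227 genes with an annotated transcript, the log2 fold change had a Spearman correlation of -0.482 with the GC content of the longest transcript and of 0.395 with its length, given as a description across genes within 1 comparison. With the genes in 5 bins of similar size, the median in the bin of lowest GC content was 0.293, with 1493 genes higher and 109 lower, and in the bin of highest GC content it was -0.16, with 158 higher and 1208 lower. The bin of shortest genes had a median of -0.24 and that of longest genes one of 0.205. The part of GC content and length in the results below was not tested. One alternative fitted and removed a smooth trend on both properties, which left 2451 higher and 2263 lower genes, and of the original calls 1683 higher and 1723 lower genes were kept. Of 564 genes kept for closer description, 414 were called, and under this offset 206 of these had a log2 fold change over 1.5 times smaller, 46 changed sign and 95 lost their call. With library-total scaling the numbers were 126, 25 and 58. The offset is cited below, as the GC and length offset, where it changed what was found for a group. Counts of list members under it are to be set beside 2451 higher and 2263 lower of 14302 genes. Those with library-total scaling are to be set beside 5804 higher and 1794 lower.

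**Figure D3:**
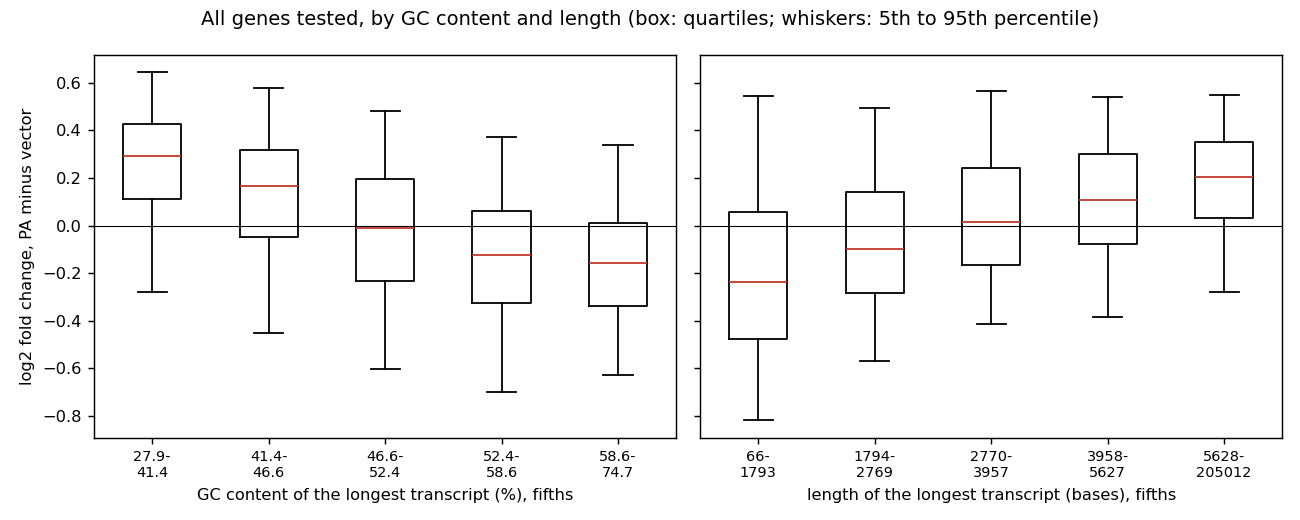
Log2 fold change of PA minus vector (vertical axis) for 5 bins of genes by GC content in percent (left) and by length in bases (right) of the longest transcript. Boxes span the quartiles and whiskers the 5th to 95th percentile, and the median is -0.16 in the bin of highest GC content and 0.293 in the bin of lowest.

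The genes that rose most were led by ZHX2 itself. SCNN1G, the gamma subunit of the epithelial sodium channel, had 23.9, 26.4 and 26.4 CPM with PA, against 14.03, 14.1 and 12.4 CPM with vector, a log2 fold change of 0.92 (SE 0.0645, adjusted p = 2.03e-21). FN1, which encodes the matrix protein fibronectin, had 67.8, 68.0 and 69.5 CPM with PA, against 37.0, 36.3 and 39.5 CPM with vector, a log2 fold change of 0.86 (SE 0.0419). The groups of these genes did not overlap, which the rule for naming them required, and the WT libraries stood higher still, at means of 36.3 CPM for SCNN1G and 80.5 CPM for FN1. RBBP8, which encodes the DNA end resection factor CtIP, had 8.81, 9.87 and 9.38 CPM with PA and 4.79, 5.20 and 5.27 CPM with vector. COPS2, a subunit of the COP9 signalosome that removes NEDD8 from cullins, had 56.0, 57.8 and 59.5 CPM with PA, against 33.3, 32.1 and 32.2 CPM with vector. For RBBP8 and COPS2 the log2 fold changes were 0.87 and 0.83, and that of COPS2 was 0.399 after the GC and length offset. RBBP8 was higher with PA than with WT by 0.48 (SE 0.105, adjusted p = 4.67e-05), whereas COPS2 was lower with PA than with WT by a difference of -0.48 (SE 0.0398).

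Other coding genes among the largest rises were lowly expressed. FGB, the fibrinogen beta chain, had 1.82 to 2.11 CPM with PA and 0.817 to 0.904 CPM with vector (log2 fold change 1.19). AMOT, MACC1, KLHL11, ZNG1F, ZBTB41 and SLC2A3 rose by 0.80 to 0.91 on the log2 scale. The non-coding genes GCAWKR and LINC01667 rose by 0.94 and 0.85. The pseudogene MTX1P1 was higher by 2.20 (SE 0.657, adjusted p = 0.0176). Copies of a gene are uncertain where the counting could split reads between them, and MTX1P1 missed the threshold without PA replicate 3 (adjusted p = 0.0511) or without vector replicate 2 (adjusted p = 0.0562). Of the 12176 protein coding genes tested, 32 rose and 17 fell at least 2-fold, while of 766 pseudogenes 6 rose and 28 fell that far.

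Ribosomal protein genes and their pseudogenes headed the falls. Cytosolic ribosomal proteins build the small and large subunits of the ribosome, and their messages are among the most abundant and shortest in a cell. Of 86 such genes, taken by symbol after the values had been seen and including paralogues such as RPL22L1, 83 were tested and 69 fell, 4 rose and 10 were not called, with a median log2 fold change of -0.48, beside 0.0235 over all genes. RPS9 had 1797, 1746 and 1656 CPM with PA, against 3140, 3136 and 3125 CPM with vector, a log2 fold change of -0.85 (SE 0.0272, adjusted p = 5.25e-41). RPS29 had 399, 316 and 376 CPM with PA, against 675, 812 and 696 CPM with vector, a log2 fold change of -1.002 (SE 0.106, adjusted p = 1.12e-05). Both genes were low in all PA libraries. RPL7, RPL22, RPL6 and RPL5 rose, by 0.20, 0.17, 0.16 and 0.07, the last without a call after the GC and length offset (adjusted p = 0.384). The falls of the list remained a majority with library-total scaling, at 61 of 83 and a median of -0.33, and after the GC and length offset, at 63 of 83 and a median of -0.41.

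The direct comparisons with the other 2 forms gave the same direction for this list. Against WT, where 66.9% of all genes and 33.7% in the lower direction were called, 78 of 83 ribosomal protein genes were lower with PA, with a median of -0.63. Against SA, where 40.7% of all genes and 18.2% in the lower direction were called, 80 of 83 were lower, with a median of -0.66. These comparisons and that with vector share the PA libraries. By share of counts, the PA libraries at 10.7 to 11.0% stood near the shCtrl libraries at 11.4 to 11.6%, and apart from WT at 14.1 to 14.4% and SA at 14.9 to 15.2%. Among the 12 largest falls named by rule, 8 were ribosomal protein pseudogenes, such as RPS10P3, with 3.68, 3.013 and 4.45 CPM with PA and 8.48, 8.05 and 9.03 CPM with vector. The counting could split reads between such copies and their parent genes, so these values are uncertain.

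Messages of most ribosomal proteins start at a C followed by a run of pyrimidines, the 5′ terminal oligopyrimidine tract through which mTOR signalling and LARP1 control their translation and storage. The first bases of 5 ribosomal protein genes are shown, the 5 largest falls among those with a single start in the RefSeq entries for GRCh38.p14 that were used here. Each window holds 15 bases before and 15 bases from the annotated start, 5′ to 3′ on the gene's strand, with the pyrimidine run in capitals.
RPS29, chr14:49598696-49598725, minus strand: ccccgagcgcgcagctggcagcggtggttg
RPS15, chr19:1438381-1438410, plus strand: tgcgcaggcgcggaccaaagcgatctcttc
RPS9, chr19:54200843-54200872, plus strand: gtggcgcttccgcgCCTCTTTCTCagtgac
RPL36, chr19:5690280-5690309, plus strand: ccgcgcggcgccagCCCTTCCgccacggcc
RPL35, chr9:124861943-124861972, minus strand: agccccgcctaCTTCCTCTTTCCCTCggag
A run was taken as C followed by at least 4 bases that are C or T. It had to lie on the gene's strand and start within 5 bases of the annotated start. By this definition it was found in RPS9, RPL36 and RPL35 and not in RPS29 and RPS15. The RPS15 window ends in such a stretch, which was not counted because it starts more than 5 bases past the annotated start. A run within the limit was found for 38 of 55 ribosomal protein genes with a single start (69.1%) and for 19.2% of the 7490 tested genes with one. Outside the ribosomal protein genes it was found for 20.1% of genes that fell with PA and 19.7% of genes that rose. The median log2 fold change of those other genes was 0.0219 with the run and 0.0266 without it. The 5 genes shown fell by 0.83 to 1.002 on the log2 scale. They were chosen as the largest falls, so their shared direction says nothing about the run.

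The other coding genes with the largest falls included COPS9, the smallest COP9 signalosome subunit, which had 11.0, 11.8 and 11.96 CPM with PA, against 22.5, 23.8 and 24.3 CPM with vector, a log2 fold change of -1.02 (SE 0.0716). NAA38, a subunit of the NatC amino-terminal acetyltransferase, had 34.0, 32.2 and 32.2 CPM with PA, against 62.9, 67.9 and 66.2 CPM with vector (log2 fold change -1.003, SE 0.0466). The values were -0.643 for COPS9 and -0.647 for NAA38 after the GC and length offset. SLC27A5, MIF, CCDC167, ROMO1, UQCC5 and FBXO27 fell by 0.90 to 0.98 on the log2 scale. C4orf48 was called at -1.12 (SE 0.395, adjusted p = 0.0378), with 29.3, 15.7 and 22.0 CPM in PA libraries and 45.5, 54.8 and 45.4 CPM in vector libraries. Its call was lost under several alternatives, with adjusted p-values of 0.0613 with library-total scaling and 0.0631 to 0.128 when either PA replicate 2 or 3 or any vector replicate was left out.

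Nuclear genes of the respiratory chain fell, while genes of the mitochondrial genome rose. Oxidative phosphorylation uses complexes whose subunits come from both genomes. Of 25 nuclear subunit genes 18 fell, 2 rose and 5 were not called, with a median of -0.26, beside 22.9% lower and 24.7% higher among all genes. COX5B, a nuclear subunit of cytochrome c oxidase, had 271, 256 and 265 CPM with PA, against 443, 472 and 466 CPM with vector, a log2 fold change of -0.80 (SE 0.0297, adjusted p = 3.69e-37), and -0.467 after the GC and length offset. NDUFA2, COX4I1 and NDUFA1 fell by 0.68, 0.67 and 0.64, and SDHD and NDUFS1 rose by 0.26 and 0.16, where the GC and length offset turned NDUFS1 to -0.135. The falls stood at 14 with library-total scaling and 20 after the GC and length offset. Against WT, 18 of the 25 were lower with PA and none was higher, beside 33.7% lower among all genes.

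Of 37 genes of the mitochondrial genome, a list added after the values were seen, 20 passed the filter; 14 of these rose, MT-TN was called lower at -0.34 and 5 were not called, with a median of 0.48, beside 24.7% higher among all genes. MT-TN lost its call after the GC and length offset (adjusted p = 0.286). MT-CO1, the catalytic subunit of cytochrome c oxidase, had 2328, 2333 and 2404 CPM with PA, against 1444, 1478 and 1501 CPM with vector, a log2 fold change of 0.68 (SE 0.0261, adjusted p = 4.37e-36). MT-ND5 and MT-CYB, subunits of complexes I and III, rose by 0.66 and 0.58. All PA libraries were above all vector libraries in these 3 genes, and the share of counts from the mitochondrial genome was 1.16 to 1.26% with PA and 0.785 to 0.807% with vector. It was 0.312 to 0.333% with WT and 1.12 to 1.19% with SA, and all 20 genes were higher with PA than with WT, by a median of 1.84, beside 33.2% of all genes. Of 78 mitochondrial ribosomal protein genes, also added later, 76 were tested; 50 fell and 10 rose, with a median of -0.33, beside 22.9% lower among all genes. MRPL54 had 31.9, 29.02 and 35.6 CPM with PA, against 56.8, 65.3 and 61.5 CPM with vector. With library-total scaling 43 fell and the median was -0.18, and after the GC and length offset 43 fell and it was -0.17.

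**Figure D4:**
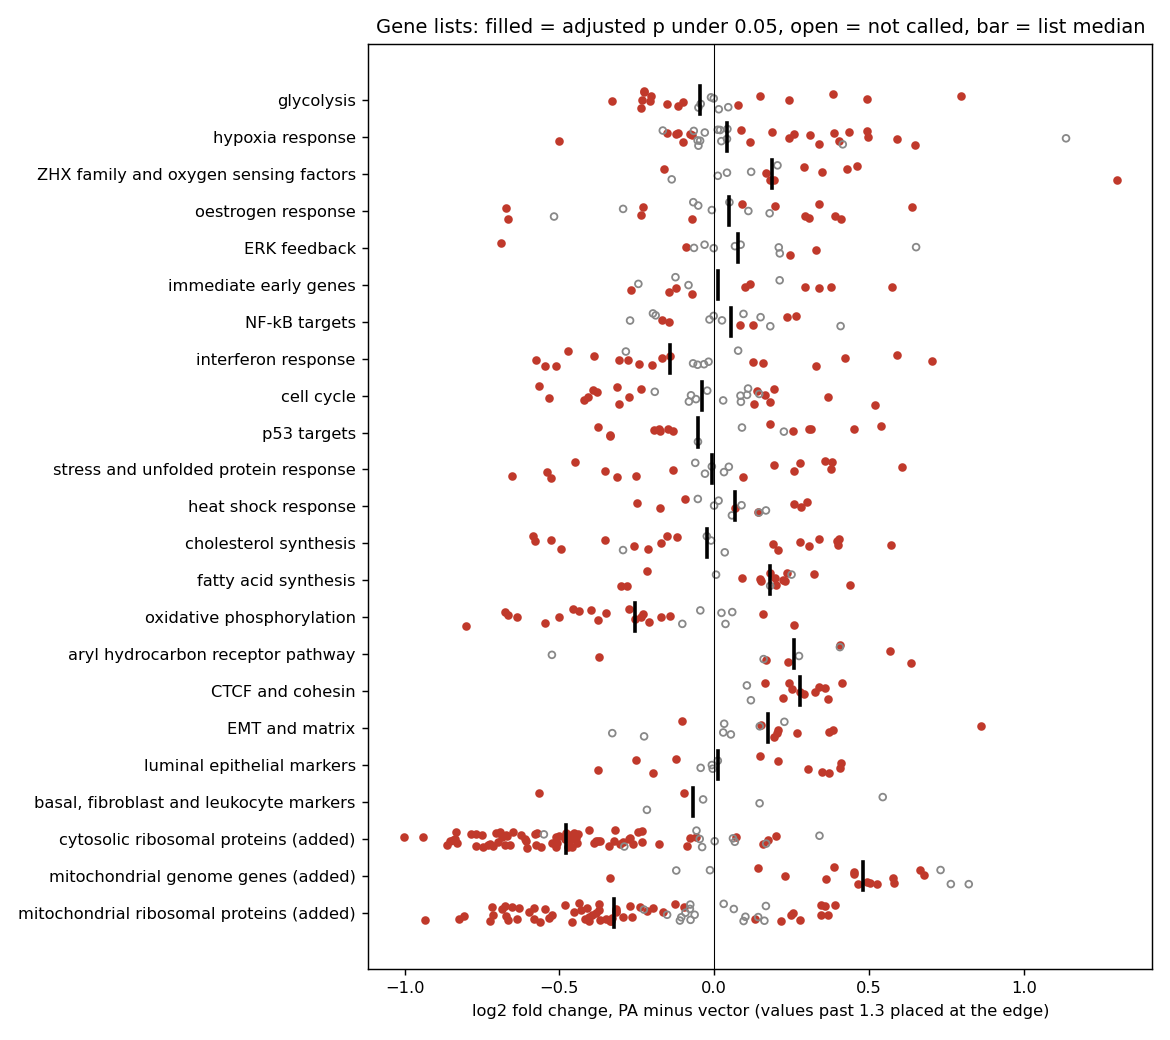
Log2 fold change of PA minus vector (horizontal axis) for every tested member of 20 gene lists and 3 lists added later, with filled points for adjusted p under 0.05 and bars at list medians. Oxidative phosphorylation and both ribosomal protein lists lie mainly below 0 (medians -0.26, -0.48 and -0.33), the mitochondrial genome genes mainly above 0 (median 0.48), and the other lists are spread about medians between -0.14 and 0.28.

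Genes of the hypoxia response moved in both directions. Low oxygen stabilises HIF alpha subunits, which induce genes of pH control, glycolysis, angiogenesis and matrix modification. Of 34 such genes 14 rose, 7 fell and 13 were not called, and the median was 0.0417. CA9, the carbonic anhydrase used as a marker of HIF activity, had 168, 161 and 164 CPM with PA and 173, 167 and 176 CPM with vector (log2 fold change -0.07, SE 0.0299, adjusted p = 0.0613). It turned higher and was called with library-total scaling, at 0.0825 (adjusted p = 0.0145), and after the GC and length offset, at 0.208 (adjusted p = 1.74e-09). BNIP3, ANGPTL4, EGLN3 and LOX had log2 fold changes of 0.02, 0.02, 0.04 and 0.04 and were not called. With library-total scaling BNIP3, ANGPTL4 and EGLN3 were called higher at 0.168, 0.172 and 0.19, and after the GC and length offset BNIP3 and ANGPTL4 were called higher at 0.0793 and 0.279 and LOX lower at -0.266. Without PA replicate 3, the number of falls was 4. With library-total scaling 24 rose and 1 fell, and after the GC and length offset 18 rose and 6 fell.

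Some hypoxia genes rose by up to 1.57-fold. CCNG2, an unusual cyclin linked to cell cycle exit, had 149, 156 and 152 CPM with PA, against 103, 93.9 and 95.1 CPM with vector (log2 fold change 0.65, SE 0.0324, adjusted p = 2.34e-29). The collagen hydroxylases PLOD2 and P4HA1, and ERO1A, an oxidase of the endoplasmic reticulum, rose by 0.59, 0.49 and 0.50, and VEGFA, the main angiogenic factor, by 0.40. The groups did not overlap in CCNG2. SPAG4 fell by 0.50. Under the GC and length offset CCNG2 lay at 0.362, PLOD2 at 0.224, P4HA1 at 0.295, ERO1A at 0.164 and SPAG4 at -0.201. CCNG2 averaged 152 CPM with PA and 315 CPM with WT, and PLOD2 110 CPM with PA and 251 CPM with WT, whereas VEGFA was higher with PA than with WT by 0.21 (SE 0.0265). Of the 34 genes, 27 were lower and 4 higher with PA than with WT, with a median of -0.61, where 33.7% of all genes were called lower. ANGPTL4, a secreted regulator of lipoprotein lipase, had 576, 577 and 557 CPM with PA, against 1741, 1851 and 1851 CPM with WT, a difference of -1.67 (SE 0.0319). The difference from WT was -1.83 for LOX, a lysyl oxidase, and -1.50 for CITED2, a competitor of HIF for its coactivator.

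Of 22 glycolysis genes, which encode the enzymes and transporters from glucose to lactate, 6 rose and 10 fell, with a median of -0.0474. The enzymes TPI1, ENO1 and GAPDH fell by 0.33, 0.24 and 0.23, whereas LDHA, HK2 and PDK1 rose by 0.24, 0.38 and 0.49 and SLC2A3, the transporter GLUT3, by 0.80. HK2 had 1077, 1075 and 1050 CPM with PA, against 827, 825 and 803 CPM with vector. PDK1 and GAPDH lost their calls after the GC and length offset (adjusted p = 0.0662 and 0.867). The split turned under it, with 10 higher and 5 lower, and with library-total scaling, with 11 higher and 5 lower. Against WT, 18 of the 22 were lower with PA and 1 was higher, beside 33.7% and 33.2% of all genes, with LDHA lower by a difference of -0.96 (SE 0.0244).

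Of 15 genes of the ZHX family and of oxygen sensing, 14 were tested; 8 rose, ZHX2 among them, and HIF1AN was called lower at -0.16, though not with library-total scaling (adjusted p = 0.831). ZHX1, a partner of ZHX2 in dimers, had 19.8, 17.8 and 19.8 CPM with PA, against 15.1, 14.4 and 13.1 CPM with vector (log2 fold change 0.43, SE 0.0728). HIF1A, the oxygen-regulated subunit, had 40.8, 39.5 and 40.2 CPM with PA, against 29.7, 30.2 and 27.7 CPM with vector (log2 fold change 0.46, SE 0.054). Neither kept its call after the GC and length offset (adjusted p = 0.247 for ZHX1 and 0.0727 for HIF1A), under which 4 of the list were higher. EPAS1, EGLN1, EGLN2, EGLN3 and ARNT2 were not called, but EGLN2 was called higher with library-total scaling (0.353, adjusted p = 0.0077) and after the GC and length offset (0.302, adjusted p = 0.0344).

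The luminal and oestrogen programme moved in both directions. ESR1, the oestrogen receptor, had 18.7, 19.8 and 19.2 CPM with PA, against 13.7, 15.9 and 13.7 CPM with vector (log2 fold change 0.41, SE 0.0667), and EPCAM and GATA3 rose by 0.41 and 0.30. TFF1, a secreted trefoil peptide and a classical oestrogen target, had 5509, 5417 and 5706 CPM with PA, against 8739, 8604 and 9144 CPM with vector (log2 fold change -0.67, SE 0.0259, adjusted p = 3.8e-36), and TFF3 fell by 0.67 as well. In ESR1 and TFF1 the groups did not overlap. ESR1 lay at 0.256, TFF1 at -0.273 and TFF3 at -0.343 after the GC and length offset. Of 23 oestrogen response genes 21 were tested, of which 8 rose and 5 fell, or 15 and 3 with library-total scaling. NRIP1, an oestrogen-induced corepressor, was called at 0.64, and the call was lost without PA replicate 1 (adjusted p = 0.0679). Of 15 tested luminal markers 7 rose and 4 fell, with 10 rising and 2 falling after the GC and length offset and 11 and 2 with library-total scaling. Against WT, 17 of 21 oestrogen genes and 11 of 15 luminal markers were lower with PA, beside 33.7% of all genes. AREG, an EGFR ligand, had 98.4 CPM with PA on average and 391.7 CPM with WT, a difference of -1.99 (SE 0.0319).

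Among targets of growth and inflammatory signalling, 4 of 12 ERK feedback genes, 10 of 14 immediate early genes and 6 of 16 NF-kB targets were called, beside 47.6% of all genes. Of 12 tested ERK feedback genes, which restrain the MAP kinase cascade, 2 rose (ERRFI1 by 0.33, DUSP5 by 0.24) and 2 were called lower, ETV4 at -0.69 and IER3 at -0.09. ETV4 missed the threshold without PA replicate 3 (adjusted p = 0.0775) and IER3 without vector replicate 3 (adjusted p = 0.153), and IER3 changed sign under other scalings. Of 14 tested immediate early genes, transcription factors induced by growth signals, 6 rose and 4 fell. KLF6, KLF4, FOS and MYC rose by 0.57, 0.38, 0.34 and 0.29, and EGR1 was called at -0.27 but not with library-total scaling (adjusted p = 0.301). The 4 falls dropped to 1 without PA replicate 3 or vector replicate 1, to 2 without vector replicate 2, and to 0 with library-total scaling or the GC and length offset. Of 16 tested NF-kB targets 4 rose and 2 fell, TNFAIP3 at 0.26 and RELB at -0.17 among them, and 2 rose without PA replicate 1 or vector replicate 3. No NF-kB target was called lower, and 8 were called higher, with library-total scaling, under which 5 ERK feedback genes were higher and 1 lower. MYC had 244, 246 and 263 CPM with PA and 203, 205 and 206 CPM with vector, and averaged 583 CPM with WT, so that PA was lower than WT by a difference of -1.22 (SE 0.0281).

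Interferon response genes, which encode antiviral effectors, split into both directions, with 11 of 23 falling and 6 rising. ISG15, a ubiquitin-like modifier, had 1300, 1280 and 1288 CPM with PA, against 1809, 1809 and 1889 CPM with vector (log2 fold change -0.51, SE 0.0265). IFI44L had 78.0, 80.5 and 85.0 CPM with PA, against 51.5, 46.2 and 51.8 CPM with vector (log2 fold change 0.70, SE 0.0463). No library of one group reached the range of the other in either gene. The median of the list was -0.14, and it was 0.0061 with library-total scaling, where 7 fell and 8 rose. After the GC and length offset 8 fell and 8 rose, with ISG15 at -0.115, IFI44L at 0.344 and IFI35 at -0.249. IFI35, ISG20 and IFI27 fell by 0.58, 0.55 and 0.47, and IFI44 and IRF9 rose by 0.59 and 0.42. Against WT, 19 of the 23 were higher with PA, where 33.2% of all genes were called higher.

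Of 28 cell cycle genes 10 fell and 7 rose, beside 22.9% and 24.7% of all genes, so the rises were at about the share of all genes. The mitotic genes CDC20, an activator of the anaphase-promoting complex, and BIRC5, a subunit of the chromosomal passenger complex, fell by 0.57 and 0.53, and AURKB was called at -0.42. CDC20 had 18.2, 17.0 and 18.7 CPM with PA, against 25.04, 26.3 and 28.2 CPM with vector. CDK1, the mitotic kinase, had 24.2, 22.4 and 24.5 CPM with PA, against 18.7, 18.5 and 17.8 CPM with vector (log2 fold change 0.37). The 2 mitotic genes given by library, chosen after their values were seen, moved in opposite directions. AURKB lost its call after the GC and length offset (adjusted p = 0.103). With library-total scaling 13 rose and 8 fell. Against WT, 24 of the 28 were lower with PA, with a median of -0.53, beside 33.7% of all genes.

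Of 17 p53 targets 8 fell and 6 rose. CDKN1A, the cyclin-dependent kinase inhibitor p21, had 3457, 3423 and 3513 CPM with PA, against 3894, 3892 and 3960 CPM with vector (log2 fold change -0.18), and MDM2, the ubiquitin ligase of p53, rose by 0.25, but neither was called after the GC and length offset (adjusted p = 0.359 and 0.406). TP53INP1, a cofactor of p53, rose by 0.54. After the GC and length offset 2 of the 17 were lower and 6 higher, and with library-total scaling 3 were lower and 9 higher. Against WT, 16 of 17 were higher with PA and none lower, with a median of 0.91, beside 33.2% higher among all genes. GDF15, a stress cytokine, averaged 1675 CPM with PA, 597 CPM with WT and 1894 CPM with vector. Its difference from vector of -0.18 was called, but lay at 0.167 after the GC and length offset.

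Of 21 genes of the integrated stress and unfolded protein responses, which answer amino acid shortage and misfolded proteins, 8 rose and 8 fell. The fallers were led by CHAC1, which degrades glutathione, with 14.2, 14.5 and 15.98 CPM with PA, against 23.1, 22.9 and 24.1 CPM with vector (log2 fold change -0.65, SE 0.0765, adjusted p = 1.54e-11). The ATF4 branch genes PHGDH, TRIB3, DDIT3 and ATF4 itself fell by 0.53, 0.45, 0.31 and 0.25. DNAJB9, EDEM1, DNAJC3 and SEL1L, which serve folding and degradation in the endoplasmic reticulum, rose by 0.61, 0.38, 0.38 and 0.36. The list did not divide cleanly along these lines. SDF2L1, also of the endoplasmic reticulum, was called at -0.54, but not after the GC and length offset (adjusted p = 0.0858). ASNS and PSAT1 of the same list were not called. After the GC and length offset 4 of the 21 fell and 7 rose, and DDIT3, ATF4, DNAJC3 and SEL1L were not called (adjusted p = 0.159, 0.328, 0.347 and 0.727). CHAC1 averaged 1.39 CPM with WT and 1.53 CPM with shCtrl, so the fall with PA left it higher than with WT by 3.42 (SE 0.128, adjusted p = 3.72e-38). Of 15 heat shock genes, encoding chaperones, 5 rose and 3 fell. HSP90AA1, HSPD1 and HSPA4 rose by 0.26, 0.28 and 0.30, and HSPE1 was called at -0.25. There were 3 rises without PA replicate 1 or PA replicate 3, 11 rises and no fall with library-total scaling, and 9 rises and 1 fall after the GC and length offset, where HSPE1 lay at 0.0037 and HSPA4 lost its call (adjusted p = 0.325).

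Of 23 genes of cholesterol synthesis and its control, 9 rose and 10 fell. HMGCS1, the synthase at the head of the mevalonate pathway, rose by 0.40, and IDI1, MSMO1 and INSIG1 by 0.57, 0.40 and 0.40. IDI1, which isomerises isopentenyl diphosphate, had 322, 327 and 312 CPM with PA, against 222, 218 and 208 CPM with vector (SE of the log2 fold change 0.0291). FDPS, the farnesyl diphosphate synthase, had 146, 146 and 143 CPM with PA, against 226, 216 and 212 CPM with vector (log2 fold change -0.58, SE 0.0291). The PA libraries were all higher in IDI1 and all lower in FDPS. PMVK, EBP and MVD fell by 0.58, 0.53 and 0.50. With library-total scaling 12 rose and 6 fell, and after the GC and length offset 8 rose and 7 fell.

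Of 17 fatty acid synthesis genes 11 rose and 3 fell, with a median of 0.181. SCD, the stearoyl desaturase, had 4384, 4403 and 4402 CPM with PA, against 3816, 3759 and 3694 CPM with vector (log2 fold change 0.23, SE 0.024). ACSL3 and ME1 were called at 0.44 and 0.32, but not after the GC and length offset (adjusted p = 0.165 and 0.171), under which 7 of the 17 rose and the median was 0.0591. SCD averaged 10390 CPM with WT, and PA was lower than WT by a difference of -1.24 (SE 0.0243). In the aryl hydrocarbon receptor pathway, which senses planar aromatic compounds and shares ARNT with HIF, 5 of 10 genes rose and NQO1 fell by 0.37. TIPARP and CYP1B1, direct targets of the receptor, rose by 0.57 and 0.41. TIPARP had 69.4, 71.8 and 70.3 CPM with PA and 49.7, 46.7 and 46.4 CPM with vector, without overlap.

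Of 14 genes for CTCF, YY1, ZNF143 and cohesin, the proteins that hold chromatin loops, 13 were tested; 11 rose and none fell, with a median of 0.278, beside 24.7% higher among all genes. The median GC content of the list was 40.8%, within the bin of lowest GC content, where 1493 of 2847 genes rose. CTCF had 45.4, 42.1 and 45.03 CPM with PA, against 38.8, 37.8 and 34.9 CPM with vector (log2 fold change 0.25, SE 0.0481). RAD21, the cleavable cohesin subunit, had 138, 134 and 136 CPM with PA, against 103, 104 and 98.9 CPM with vector (log2 fold change 0.41, SE 0.0313). After the GC and length offset 3 of the 13 were called higher, with a median of 0.0204. CTCF was not among them (adjusted p = 0.0626), and STAG2, another cohesin subunit called at 0.37, lay at -0.01. Against WT, 8 of 13 were lower with PA and 2 higher, beside 33.7% and 33.2% of all genes.

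Of 25 genes of the epithelial-mesenchymal transition and the matrix, 16 were tested; 8 rose, led by FN1, and TGFB1 fell. CDH1, the epithelial cadherin, had 447, 463 and 464 CPM with PA, against 360, 345 and 357 CPM with vector (log2 fold change 0.37, SE 0.0287). The single fall was lost without PA replicate 2 or vector replicate 3, with library-total scaling, where 13 rose, and after the GC and length offset, where 11 rose.

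The direct test of PA against WT called 4742 genes higher and 4826 lower with PA, and 1060 higher and 764 lower at 2-fold or more, 12.8% of genes tested (7.41% and 5.34%). DKK1, a secreted Wnt antagonist, had 2.15, 1.77 and 2.25 CPM with PA, against 20.1, 19.6 and 19.4 CPM with WT, a log2 difference of -3.26 (SE 0.119, adjusted p = 6.72e-39). LDLRAD4, a negative regulator of TGF-beta signalling, had 1.61, 1.40 and 1.48 CPM with PA, against 15.4, 17.1 and 16.8 CPM with WT, a difference of -3.45 (SE 0.132). The PA and WT libraries of both genes did not overlap, which the rule for naming them required. With vector the 2 genes stood at 0.909 to 1.63 CPM and 1.72 to 2.12 CPM, so PA differed from vector by 0.70 in DKK1 (SE 0.186, adjusted p = 0.0012) and by -0.37 in LDLRAD4 (SE 0.186, adjusted p = 0.0939). TM4SF18-AS1 and LBHD1 differed from WT by -2.55 and -2.48.

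In the other direction HSPA6, an inducible heat shock protein, had 7.32, 5.78 and 7.18 CPM with PA, against 0.756, 0.409 and 0.569 CPM with WT, a difference of 3.50 (SE 0.192). Its vector libraries held 7.98, 7.51 and 7.39 CPM, and PA differed from them by -0.17 (adjusted p = 0.207). KLHDC7B averaged 6.06 CPM with PA, 0.434 CPM with WT and 6.63 CPM with vector. The mitochondrial tRNA genes MT-TN and MT-TC were higher with PA than with WT by 5.92 and 5.30, in libraries made from polyA RNA. Of DKK1, LDLRAD4, TM4SF18-AS1, LBHD1, HSPA6, KLHDC7B, MT-TN and MT-TC, PA was called different from vector in DKK1 and MT-TN. The others changed with the setting in part: LDLRAD4 was called after the GC and length offset (-0.5656, adjusted p = 0.0122), TM4SF18-AS1 without PA replicate 3 (-0.2338, adjusted p = 0.0398), and MT-TC with library-total scaling (0.135, adjusted p = 0.0213) and after the offset (0.3156, adjusted p = 2.99e-07).

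The knockdown itself was measured in a separate table with its own libraries, in which shZHX2 cells were set against shCtrl cells in hypoxia. There 66.8% of 14903 genes tested were called, 33.6% higher and 33.2% lower with shZHX2. At 2-fold or more 1372 genes were higher and 1436 lower, 18.8% of genes tested (9.21% and 9.64%). ZHX2 itself was lower with the hairpin there, by a log2 difference of -1.86 (SE 0.149). FN1 and CHAC1 differed in direction between the knockdown table and the rescue table's own pair of shZHX2 with vector and shCtrl. FN1 was higher with shZHX2 in the knockdown table by 1.99 (SE 0.0943), but averaged 37.6 CPM with shZHX2 and vector and 87.1 CPM with shCtrl. CHAC1 was lower with shZHX2 by a difference of -1.83 (SE 0.123), but averaged 23.4 CPM with shZHX2 and vector and 1.53 CPM with shCtrl. In the knockdown table SCNN1G and RBBP8 were higher with shZHX2 by 1.26 and 1.86, and DKK1, LDLRAD4 and COPS9 lower by differences of -2.56, -1.52 and -1.47. The direction of these genes in the rescue table's own pair is not given here. What sets the tables apart was not tested.

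Of the 1436 genes lower with shZHX2, 1083 were tested in the present table. Their median difference between shZHX2 with vector and shCtrl in that table was -0.414, and that of the genes higher with shZHX2 was 0.309. With PA 156 of them were higher than with vector (14.4%) and 313 lower (28.9%), beside 24.7% and 22.9% of all genes, and the median was -0.0767. With SA 174 of them were higher (16.1%) and 263 lower (24.3%), with a median of -0.0495, beside 20.2% and 21.5% of all genes. With WT, set against the same vector libraries, 503 were higher (46.4%) and 271 lower (25%), with a median of 0.241. Among all genes the WT shares were 35.1% and 34.6%. In the direct comparison 543 were lower (50.1%) and 200 higher (18.5%) with PA than with WT, with a median of -0.341. Among all genes 33.7% were lower and 33.2% higher in that comparison. Of the 1092 tested genes that were higher with shZHX2, 358 were higher with PA (32.8%) and 97 lower (8.88%), with a median of 0.161. With SA 194 of them were higher (17.8%) and 119 lower (10.9%), with a median of 0.0361. With WT 218 of them were higher (20%) and 459 lower (42%), with a median of -0.233. PA was higher than WT in 533 (48.8%) and lower in 127 (11.6%) of these.

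Induction by hypoxia was taken from the knockdown table, as hypoxic against normoxic shCtrl cells, and reached 2-fold in 15.3% of genes. That comparison and the knockdown used the same hypoxic shCtrl libraries. Genes induced at least 2-fold by hypoxia and lower at least 2-fold with shZHX2 numbered 451, of which 326 were tested here. With PA 27 of them were higher (8.28%) and 76 lower (23.3%) than with vector, at a median of -0.126. Beside 24.7% and 22.9% of all genes, the falls were at about the share of all genes. The SA form was close to PA here, with 25 higher (7.67%) and 73 lower (22.4%) than with vector, at a median of -0.1. Its shares over all genes were 20.2% and 21.5%. With WT 123 were higher (37.7%) and 92 lower (28.2%) than with vector, at a median of 0.113. Beside 35.1% and 34.6% of all genes, the rises were near the share of all genes. PA was lower than WT in 143 (43.9%) and higher in 67 (20.6%), at a median of -0.275, beside 33.7% and 33.2% of all genes. The classes also differed in base composition: the median GC content was 59.0% in the hypoxia class, 55.0% in the class lower with shZHX2, 46.4% in that higher with shZHX2 and 49.4% over all genes. After the GC and length offset the PA medians were 0.0532, 0.0128 and 0.0611 in the same order of classes, beside 0.016 over all genes. The hypoxia class then had 54 higher and 32 lower of 326. Among 1083 genes lower with shZHX2, 181 were higher and 155 lower, and among 1092 genes higher with it, 198 and 79. Over all 14302 genes 2451 were higher and 2263 lower. In each class the rises were near that share of all genes, and so were the falls among genes lower with shZHX2. With library-total scaling the medians were 0.0229, 0.0719 and 0.309, beside 0.172 over all genes.

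**Figure D5:**
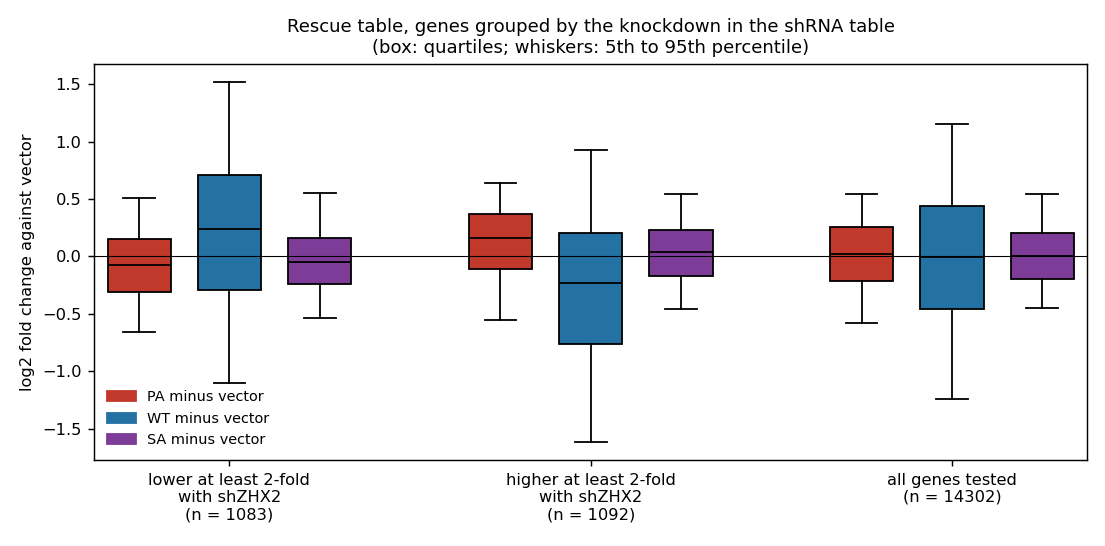
Log2 fold change against vector (vertical axis) in the rescue table for PA, WT and SA, in genes grouped by their response to the ZHX2 hairpin in the separate knockdown table. Boxes span the quartiles and whiskers the 5th to 95th percentile; the PA medians are -0.0767 and 0.161 in the 2 knockdown classes and the WT medians 0.241 and -0.233.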

How the data were processed

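The authors deposited unnormalised tables of whole-number read counts for each gene. The submitters' processing notes name hg38 as the build and list DESeq2, featureCounts, FastQC and HISAT2, with no version. Annotation and strand setting were not given in the sources used here, so overlapping, antisense and duplicated genes are uncertain. Gene symbols were matched for 60370 of 60624 identifiers, and positions, types, length and GC content came from GENCODE 29 on GRCh38. One quasi-likelihood model with the group as its term was fitted to all 15 libraries of the rescue table (edgeR 4.0.16 in R 4.3.3, filterByExpr, TMM, robust dispersions) and another to the 9 libraries of the knockdown table. A gene was called where the adjusted p (Benjamini-Hochberg) was under 0.05. The SE is the size of the log2 fold change over the root of its quasi-likelihood F. CPM values were computed from the deposited counts. The model was tested on simulated counts with known changes, drawn with the fitted spread of these data and with no trend on GC content or length. It therefore cannot check the trend described above. Of 50 genes each changed by -0.5 and 0.5 on the log2 scale, 36 and 43 were recovered. Of 50 each changed by -1 and 1, 48 and 50 were recovered, and 11 unchanged genes were called.

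Genes were named by rule: ZHX2, the 12 largest rises and 12 largest falls for PA against vector and the 5 largest in each direction for PA against WT, among calls with a symbol other than a clone or identifier name, whose average log2 CPM reached 1 and whose groups did not overlap, and up to 4 called members per list. Further coding genes, list members and values by library were chosen after their values were seen. The share of all genes whose groups did not overlap is not given here. Where groups are said not to overlap, this describes the gene and adds no weight to its call. Members, lists and tests were chosen with earlier results of these data known. The labels number the replicates without stating whether libraries of the same number belong together. Same-number correlations of deviations between PA and vector were -0.016, 0.0039 and -0.0204. No shared deviation was seen, and the main fit used no pairing. Alternatives were DESeq2 1.42.0, other scalings and filters, a replicate block, a lowess offset on GC content and length, and each replicate left out. A few genes named by the rule are not reported here. The hexanediol and sgRNA tables were not used here.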

Additional observations from a re-analysis of the deposited data

How the results depend on the processing

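Of PA against vector, the counts of called genes stayed within 1.5 times under the alternatives run, except with library-total scaling (5804 higher, 1794 lower). At 2-fold the 65 higher genes became 41 with DESeq2 and its size factors, 128 with library-total scaling and 42 with only the 2 groups fitted. The 71 lower genes became 37 with library-total scaling and 32 with the GC and length offset, with or without the replicate block. With each PA or vector replicate left out, 3128 to 3352 genes were higher and 2974 to 3138 lower, 73 to 93 higher and 69 to 113 lower at 2-fold, the 113 without PA replicate 1, and ZHX2 stayed at 2.909 to 3.023. The replicate block, which the correlations of same-number libraries do not call for, gave 3525 higher and 3239 lower genes. PA against WT gave 2913 lower genes, and 1821 higher and 420 lower at 2-fold, with library-total scaling; leaving out replicates gave 4424 to 4533 higher and 4552 to 4821 lower genes, and 1042 to 1129 and 757 to 855 at 2-fold. In the knockdown table library-total scaling gave 2199 higher and 922 lower genes at 2-fold; leaving out replicates gave 4685 to 4787 higher and 4797 to 4851 lower, and 1379 to 1435 and 1455 to 1482 at 2-fold.

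Without ribosomal protein genes, pseudogenes and mitochondrial genes, an alternative added after seeing the data, 3260 genes were higher and 3236 lower. Among genes named by rule and called, or called under the alternative, the sign changed for IER3 (0.0574 with library-total scaling, 0.218 with the GC and length offset, 0.2184 with the block as well), KRT17 (0.0499, 0.1449 and 0.1448), MT-TC (0.135, 0.3156 and 0.3192), NFKB2 (0.00279 with library-total scaling), HSPE1 (0.0037 and 0.00152 with the offset, without and with the block), RELB (0.0569 and 0.0568) and STAG2 (-0.0109 and -0.0113). Of other genes the report gives with a value, the sign changed after the offset for CA9 (0.208), LOX (-0.266), EGLN1 (-0.202), GDF15 (0.167), NDUFS1 (-0.135), MDM2 (-0.0478), RPL5 (-0.0313), CDKN1A (0.0291), GAPDH (0.00856), TGFB1 (0.0758), TM4SF18-AS1 (0.104) and HSPA6 (0.0235), and with library-total scaling for CA9 (0.0825), TGFB1 (0.0441) and KLHDC7B (0.0175). The cause was not tested. Depth limits the genes near 1 CPM, such as FGB and DKK1, and counting error is not the only error there.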
